A study of Mus musculus with 8 samples.

Results

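The transcripts described here encode 10 receptors through which growth factors and cytokines act on mouse embryonic stem cells. They are the leukaemia inhibitory factor (LIF) receptor chains Lifr and Il6st, the fibroblast growth factor (FGF) receptors Fgfr1 and Fgfr2, the bone morphogenetic protein (BMP) and activin receptors Bmpr1a and Acvr2b, the insulin-type receptors Igf1r, Insr and Igf2r, and the stem cell factor receptor Kit. They were taken by gene symbol, 1 transcript per gene. All 10 had a row among the 7820 transcripts of the CLIP table and among the 16456 of the poly(A) table, and 9 among the 7936 of the footprint table. Fgfr2, the least abundant of them, was not analysed for footprints.

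LIF binds LIFR, which pairs with the shared signalling chain gp130, the product of Il6st, and the bound JAK kinases activate STAT3, the signal that keeps mouse embryonic stem cells undifferentiated in culture. FGF receptors signal through RAS and ERK kinases and move these cells towards differentiation, while BMP type II receptors phosphorylate type I receptors, which in turn phosphorylate the SMAD proteins that induce the Id genes. The insulin and IGF1 receptors signal through IRS proteins, PI3 kinase and AKT. The receptors themselves are membrane proteins synthesised at the endoplasmic reticulum (ER). Insr and Igf1r are also known targets of let-7, the microRNA family whose maturation LIN28 proteins block.

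The cells were A3-1 mouse embryonic stem cells, 1 line, grown with serum and LIF. LIN28A, an RNA-binding protein of pluripotent cells, was studied by CLIP-seq, the sequencing of RNA pulled down after ultraviolet crosslinking to a chosen protein, in cells without siRNA, with 1 library for each of 3 anti-LIN28A antibodies (the monoclonals 35L33G and 2J3 and a polyclonal). Poly(A) RNA was sequenced from untreated cells and from cells 48 hours after treatment with siLin28a, an siRNA against Lin28a, or with the luciferase control siLuc, and ribosome profiling, the sequencing of mRNA fragments protected by ribosomes (footprints), covered siLuc and siLin28a. Each of these 5 conditions had 1 library. The cells carry no stated transgene, and no control CLIP library was analysed here, so what binding by LIN28A and what the assays themselves add to an enrichment over poly(A) RNA cannot be told apart.

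The siRNA strands define the knockdown and its control and are given 5′ to 3′, in lower case throughout, without their dTdT overhangs. Each duplex holds 19 bases, and its strands are reverse complements of each other.
siLin28a strand 1: auguucuucccuuuuggcc
siLin28a strand 2: ggccaaaagggaagaacau
siLuc strand 1: ucgaaguacucagcguaag
siLuc strand 2: cuuacgcugaguacuucga

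Library totals ran from 7698479 to 8027670 exon counts for CLIP, from 7475174 to 9605641 for poly(A) RNA and from 5980673 to 7570209 for footprints. With siLin28a, Lin28a mRNA stood at 33.4% of its siLuc level and its footprints at 25.7%. Against untreated cells, Lin28a mRNA stood at 25.4% with siLin28a and 76.2% with siLuc. All 10 embryonic stem cell markers looked up were present, with a summed level of 5780 counts per 1000000 (CPM) untreated, 5776 with siLuc and 6928 with siLin28a. Markers of other cells summed to far less: 31.9, 31.7 and 19.2 CPM for the 4 of 8 fibroblast markers in the table, 4.43, 3.88 and 5.62 for 7 primitive endoderm markers (Sox7 at 0 untreated, Dab2 and Gata6 at 0 with siLuc), and 43.6, 47.9 and 55.6 for 3 of 5 neural markers. The 5 mesoderm markers, with Mesp1 at 0 in untreated cells, summed to 6.37, 10.2 and 21.2 CPM, so their sum was highest with siLin28a. Eomes alone made up 3.13, 6.96 and 14.8 CPM of these sums. Tubb3 made up 42.1, 44.5 and 50.5 CPM of the neural sums, and Thy1 24.1, 23.3 and 10.6 CPM of the fibroblast sums. The part of the mesoderm markers in the results below was not tested. In such bulk samples fewer cells of a type and less RNA per cell cannot be told apart.

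Receptor mRNA levels were compared between genes per kilobase (kb) of transcript. In untreated cells Kit was the highest of the 10 at 44.7 CPM per kb (95% counting interval 42.9 to 46.7). Igf2r and Il6st followed at 30.7 (29.5 to 31.9) and 30.5 (29.0 to 32.1), which counting error does not separate. A middle set held Fgfr1 at 20.3 (19.0 to 21.6), Acvr2b at 18.5 (16.4 to 20.7), Lifr at 17.0 (16.1 to 17.8) and Bmpr1a at 15.1 (14.1 to 16.2), where each neighbour's interval overlapped the next. Igf1r stood at 5.94 (5.49 to 6.41), Insr at 2.49 (2.17 to 2.85) and Fgfr2 at 1.31 (1.01 to 1.67). Their percentiles in the poly(A) table ran from 32.1 for Fgfr2 to 86.9 for Kit.

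**Figure D1:**
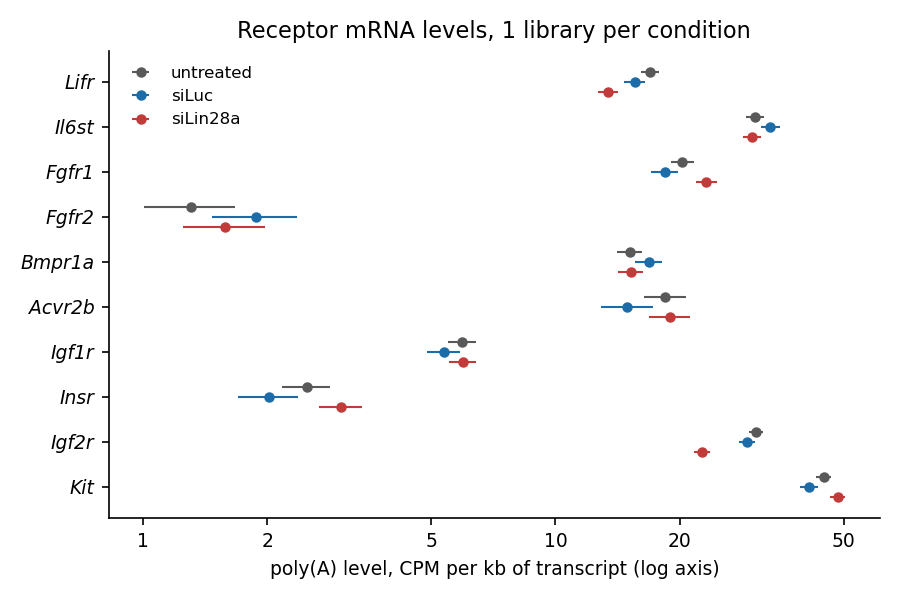
Poly(A) level of the 10 receptor mRNAs in CPM per kb of transcript on a log axis, in untreated, siLuc and siLin28a cells (1 library each). Points are levels and bars 95% counting intervals; Kit is the highest and Fgfr2 the lowest in each library.

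The first comparison asks how much of each receptor mRNA the LIN28A antibodies recovered, given its level in untreated cells. Of the 10 transcripts, 9 passed as enriched and 0 as depleted (edgeR, quasi-likelihood F-test, Benjamini-Hochberg adjusted over 7820 transcripts). Of all transcripts 34.6% were enriched and 33.3% depleted. Acvr2b did not pass. The enrichment reached 4-fold, a size picked after the values were seen, for 8 of the 10, against 6.34% of all transcripts. The median log2 enrichment was 2.25 for the receptors and −0.03 for all transcripts. Scaled by total counts instead of TMM factors (edgeR's trimmed means), 1984 transcripts were enriched and 3605 depleted in place of 2702 and 2604, the median transcript moved from −0.03 to −0.40, and the same 9 receptors passed. CPM values in the next 4 paragraphs are taken over the 7820 transcripts of the CLIP table, and enrichments are log2 values with TMM scaling, as mean ± SD over the 3 antibodies. No label ties the antibodies to separate cultures, so p-values measure the spread between them, which may be technical.

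Lifr (NM_013584; mm9 chromosome 15, 7090542 to 7147489), the LIF-binding chain, stood at 833, 861 and 865 CPM with 35L33G, 2J3 and the polyclonal, against 171 in untreated poly(A) RNA. All CLIP libraries lay far above the input, and Lifr had the highest mean enrichment of the 10, 2.69 ± 0.04 (n = 3; adjusted p = 1.0e-15, edgeR). Without 2J3, Fgfr2 at 2.74 stood above Lifr at 2.68. Its partner Il6st (NM_010560; chromosome 13, 113254278 to 113297068) stood at 683, 709 and 677 CPM against 173. The groups did not overlap, with an enrichment of 2.36 ± 0.04 (n = 3; adjusted p = 1.2e-14, edgeR).

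The FGF receptors differed from each other. Fgfr1 (NM_010206; chromosome 8, 26629244 to 26686186), the more abundant, stood at 123, 150 and 142 CPM against 106 in the input. The CLIP values were only a little higher, an enrichment of 0.75 ± 0.15 (n = 3; adjusted p = 0.00021, edgeR). Fgfr2 (NM_010207; chromosome 7, 137305965 to 137410322) stood at 42.9, 27.0 and 31.5 CPM against 7.07. It rested on 63 input counts and varied most between antibodies, 2.59 ± 0.33 (n = 3; adjusted p = 6.3e-06, edgeR).

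Among the BMP and activin receptors, the type I kinase Bmpr1a (NM_009758; chromosome 14, 35224254 to 35315732) stood at 295, 310 and 293 CPM against 86.2. Every antibody gave a higher value than the input, and the enrichment was 2.16 ± 0.05 (n = 3; adjusted p = 3.1e-12, edgeR). Acvr2b (NM_007397; chromosome 9, 119311619 to 119342624), a type II receptor that binds activins and several BMPs, stood at 33.3, 33.3 and 30.1 CPM against 32.7, so the input lay within the range of the antibodies. Its enrichment of 0.35 ± 0.07 did not pass (n = 3; adjusted p = 0.27, edgeR) and was −0.02 with total counts. The annotated Acvr2b transcript is short, with 90 non-coding bases of 1701, against 1477 to 7868 non-coding bases in the other 9.

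The insulin-type receptors were all enriched. Igf1r (NM_010513; chromosome 7, 75097143 to 75378553), a tyrosine kinase for IGF1 and IGF2, stood at 300.1, 293 and 279 CPM against 74.0, an enrichment of 2.34 ± 0.05 (n = 3; adjusted p = 1.4e-12, edgeR). Insr (NM_010568; chromosome 8, 3150922 to 3279617), its insulin-binding relative, stood at 107, 111 and 111 CPM against 24.2, with 2.54 ± 0.04 (n = 3; adjusted p = 5.2e-10, edgeR). Igf2r (NM_010515; chromosome 17, 12875272 to 12962572) has no kinase and carries IGF2 and lysosomal enzymes to lysosomes. It stood at 1005, 933 and 926 CPM against 285, with 2.11 ± 0.06 (n = 3; adjusted p = 1.7e-14, edgeR). No CLIP library of the 3 genes came near its input. An antisense RNA, Airn, overlaps Igf2r, and the counting is not stated to use strand. Kit (NM_001122733; chromosome 5, 75971012 to 76052746), a tyrosine kinase best known from germ and blood cells, stood at 776, 778 and 745 CPM against 241. Its CLIP values lay close together and above the input, at 2.04 ± 0.03 (n = 3; adjusted p = 4.3e-14, edgeR).

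**Figure D2:**
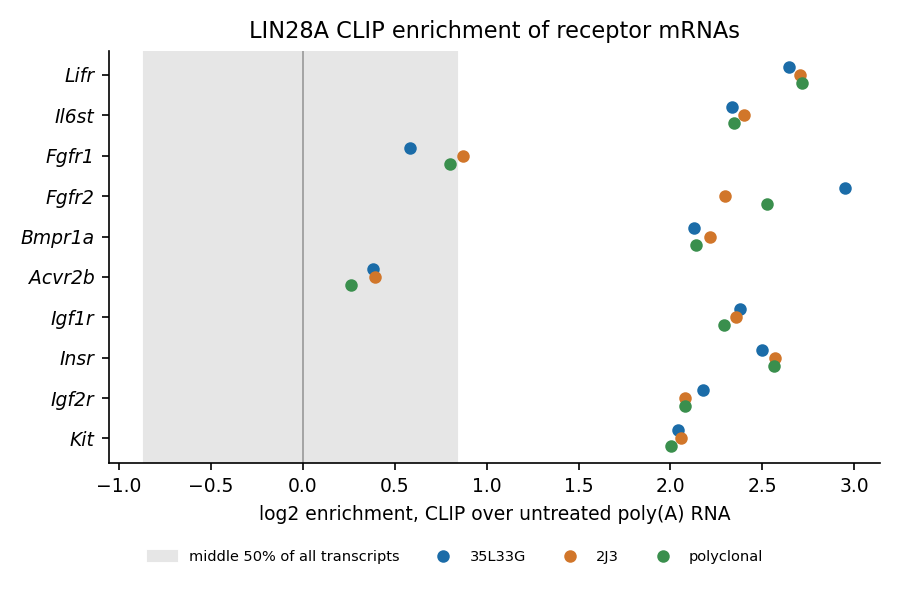
Log2 enrichment of each receptor mRNA in LIN28A CLIP over untreated poly(A) RNA, 1 point per antibody; the grey band spans the middle 50% of all 7820 transcripts. Of the 10 receptors, 8 lie at 2.00 or above with every antibody, while Fgfr1 and Acvr2b lie in or beside the band.

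The CLIP table also gives counts in coding sequence and in the 3′ UTR, beside a poly(A) column whose condition is not named. For the receptors that column lay within 0.96 to 1.03 times of its median ratio to the untreated counts, and it served as the reference for position within the transcript. Coding sequence took 31.0% ± 2.6 of all exon counts of Lifr in CLIP and 82.5% ± 3.3 of those of Fgfr1 (SD, n = 3). In the reference it took 40.3% and 74.6%. It makes up 33.9% of the Lifr transcript and 49.3% of the Fgfr1 transcript. The ratio of coding to 3′ UTR counts was therefore taken over the same ratio in the reference.

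On that log2 scale, with 9 receptors that had 10 or more counts in each region, 7 had means above 0 and 2 below. Among 6243 transcripts with such counts, 37.8% were above 0 and the median was −0.34. The receptors' median was 0.21. CLIP favoured coding sequence over the reference for Fgfr2 at 0.82 ± 0.29, Igf2r at 0.65 ± 0.06, Bmpr1a at 0.64 ± 0.18 and Il6st at 0.53 ± 0.22 (SD, n = 3), each above 0 with every antibody. Kit at 0.21 ± 0.17 was also above 0 with every antibody, whereas Fgfr1 at 0.14 ± 0.31 and Igf1r at 0.07 ± 0.32 changed sign between them. Lifr and Insr went the other way. Lifr had 4289, 4576 and 4972 counts in the 3′ UTR and 2108, 2171 and 1950 in coding sequence. Its value was −0.61 ± 0.18, with 59.1% of transcripts higher. Insr had 450, 425 and 464 against 373, 440 and 419, a value of −1.58 ± 0.16 (SD, n = 3), with 84.5% of transcripts higher. Acvr2b had 3, 13 and 5 counts in the 3′ UTR, too few to place. With 1 reference library, shared by the 3 antibodies, these positions carry no test. The SD leaves out the counting error of the reference, in which Fgfr2 had only 61 exon counts.

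**Figure D3:**
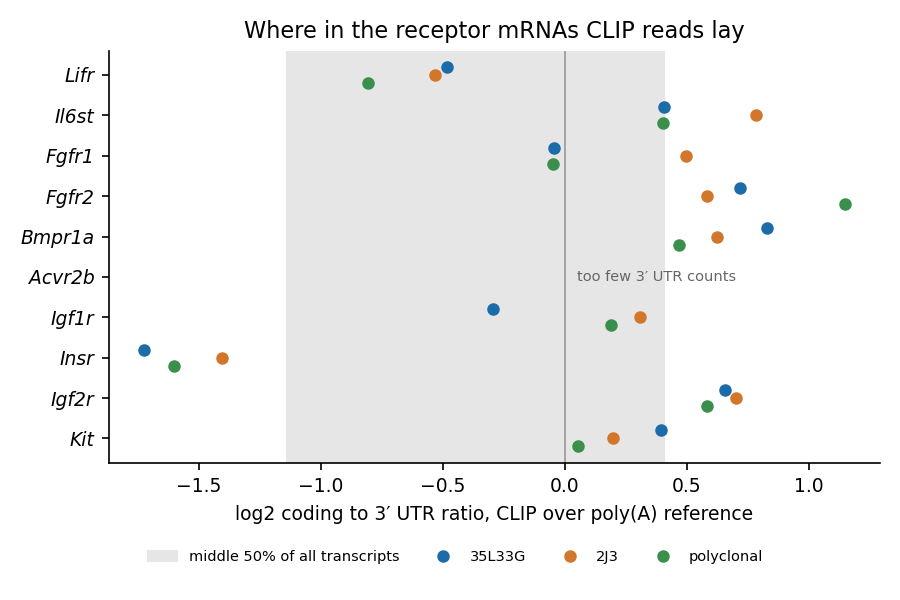
Log2 ratio of coding to 3′ UTR counts in CLIP over the same ratio in the poly(A) reference column, 1 point per antibody; the grey band spans the middle 50% of 6243 transcripts. Insr and Lifr lie below 0 with all 3 antibodies, and Fgfr2, Igf2r, Bmpr1a, Il6st and Kit above 0.

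The second comparison asks whether the receptor mRNAs were more or less abundant once Lin28a was knocked down. A single library per condition allows no test, and intervals cover counting error only. None of the 10 mRNAs differed by 1.5-fold from siLuc, where 11.4% of 11217 transcripts were higher and 6.53% lower by that much. With the footprint table's poly(A) counts 1 of 9, Insr at 0.66, was past it. The receptors' median log2 change was 0.00 and that of all transcripts 0.01. Levels below are CPM per kb in untreated, siLuc and siLin28a cells.

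Insr stood at 2.49, 2.02 and 3.02. The siLin28a library was the highest, at a log2 change of 0.58 over siLuc (0.28 to 0.88), just under 1.5-fold, but 0.27 (0.01 to 0.54) over untreated cells. Acvr2b stood at 18.5, 14.9 and 18.9, and Fgfr1 at 20.3, 18.4 and 23.2. Both were 0.34 above siLuc (0.07 to 0.61 and 0.20 to 0.48), where siLuc was the lowest library, and Acvr2b was 0.03 above untreated. Kit stood at 44.7, 41.2 and 48.3, a change of 0.23 (0.14 to 0.32), and Igf1r at 5.94, 5.36 and 5.95, a change of 0.15 (−0.02 to 0.32).

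Igf2r was the lowest relative to siLuc, at 30.7, 29.2 and 22.7, a change of −0.36 (−0.45 to −0.27). It lay below both other libraries. Lifr, at 17.0, 15.6 and 13.4, was also lowest with siLin28a, by −0.22 (−0.34 to −0.10). Il6st stood at 30.5, 33.2 and 30.0, a change of −0.15 (−0.25 to −0.04), and Bmpr1a at 15.1, 16.8 and 15.2, a change of −0.14 (−0.29 to 0.00). Against untreated cells these 2 were at −0.03 (−0.13 to 0.07) and 0.01 (−0.14 to 0.15), where counting error covers 0. Fgfr2 stood at 1.31, 1.88 and 1.58, a change of −0.25 (−0.73 to 0.23), where counting error covers 0.

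The control siRNA gives the scale of differences between libraries without the Lin28a siRNA. Lin28a mRNA itself was lower with siLuc than in untreated cells, at a log2 change of −0.39 (−0.46 to −0.32). In siLuc against untreated cells, with siLuc shared by both comparisons, 0 of 10 differed by 1.5-fold, where 5.39% of 11112 transcripts were higher and 6.88% lower. The range ran from −0.30 for Acvr2b (−0.58 to −0.04) and Insr (−0.62 to 0.01) to 0.52 for Fgfr2 (0.02 to 1.03), with a median of −0.12.

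The third comparison asks how ribosome footprints on these mRNAs differed after Lin28a siRNA. All 9 measured receptors had at least 1.5-fold more footprints with siLin28a than with siLuc, where 13.0% of 7799 transcripts were higher and 27.2% lower by that much. The receptors' median log2 change was 0.78 and that of all transcripts −0.23. With TMM factors the median transcript moved to 0.00, 19.6% were higher and 16.0% lower, and the receptors ran from 0.91 to 1.52 in place of 0.68 to 1.29. There was 1 library per condition, so the intervals leave out the spread between cultures.

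Insr had 34.1 CPM of footprints with siLuc and 83.4 with siLin28a, the largest ratio of the 9, at a log2 change of 1.29 (1.07 to 1.51). The LIF receptor chains followed the same direction, Lifr from 296 to 507 CPM, a change of 0.78 (0.70 to 0.85), and Il6st from 296 to 555, a change of 0.91 (0.83 to 0.98). Kit went from 575 to 1072 CPM, a change of 0.90 (0.84 to 0.96), and Fgfr1 from 130 to 242, also 0.90 (0.78 to 1.02). Igf2r, with the most footprints of the set, went from 873 to 1470 CPM, a change of 0.75 (0.71 to 0.80). Its mRNA was less abundant with siLin28a in both tables, by −0.36 and −0.34, whereas that of Lifr was at −0.22 in the poly(A) table and −0.01 in the footprint table. Igf1r went from 63.8 to 109 CPM, a change of 0.77 (0.59 to 0.94), Bmpr1a from 43.9 to 73.4, a change of 0.74 (0.53 to 0.95), and Acvr2b from 25.8 to 41.3, a change of 0.68 (0.40 to 0.96).

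Ribosome density is the ratio of footprints to mRNA. In siLuc cells the receptors were already dense relative to the median transcript of the 7799. Lifr was 6.53-fold above that median, at percentile 99.2, Kit 5.02-fold (98.2), Igf2r 4.45-fold (97.4), Insr 3.69-fold (95.5) and Il6st 3.41-fold (94.3). Fgfr1 stood at 2.28-fold (85.9) and Igf1r at 1.97-fold (81.2). The BMP and activin receptors lay near the middle, Bmpr1a at 1.28-fold (62.2) and Acvr2b at 1.23-fold (60.5). The poly(A) counts of the footprint table were 36.4% of the poly(A) table's count for Lifr and 99.5% for Acvr2b in siLuc cells, and their coding shares in the reference column were 40.3% and 94.9%.

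The change in density with siLin28a, relative to the median transcript, was 1.5-fold or more for 9 of 9 receptors, against 18.6% of transcripts higher and 17.0% lower. The receptors' median was 0.88. Igf2r was highest at 1.31 (1.21 to 1.42) and Il6st next at 1.29 (1.14 to 1.45), with mRNA changes of −0.34 and −0.17 in that table. Lifr stood at 1.00 (0.80 to 1.20), Igf1r at 0.96 (0.68 to 1.24), Bmpr1a at 0.88 (0.58 to 1.17), Kit at 0.85 (0.72 to 0.98) and Fgfr1 at 0.81 (0.61 to 1.00). Insr, where mRNA and footprints were both higher, stood at 0.85 (0.41 to 1.28). Acvr2b was lowest at 0.62 (0.24 to 1.00), with 17.2% of transcripts higher. By library totals the median transcript lay at −0.22, 11.1% of transcripts were 1.5-fold higher and 27.3% lower, and Acvr2b at 0.40 no longer reached 1.5-fold. With mRNA from the poly(A) table Acvr2b stood at 0.57, also under it, and the other 8 stayed past it in both.

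**Figure D4:**
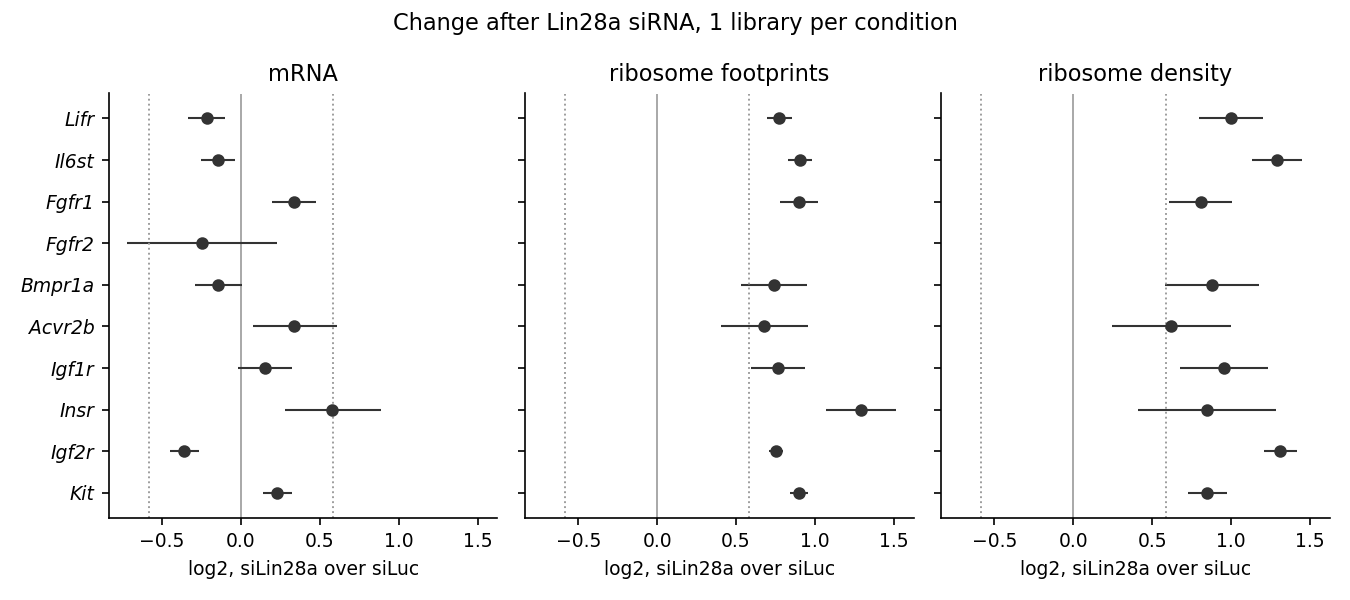
Log2 change of mRNA, ribosome footprints and ribosome density (relative to the median transcript) with siLin28a over siLuc for each receptor, 1 library per condition. Points are changes, bars 95% counting intervals and dotted lines 1.5-fold; the mRNA points fall on both sides of 0 and all 9 footprint and density points lie beyond 1.5-fold.

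The receptors were set beside other transcripts with a similar CLIP enrichment, since the CLIP libraries and the siRNA libraries are separate. Of 317 transcripts enriched 4-fold or more and measured for density, 72.2% gained 1.5-fold or more in density, with a median of 0.84. Among all 2278 enriched transcripts the share was 37.7% with a median of 0.36. It was 14.7% of 2301 transcripts that did not pass and 4.31% of 2505 depleted ones. These groups include the receptors. The 7 receptors in the 4-fold class ran from 0.85 to 1.31, with Il6st and Igf2r above its upper quartile of 1.12. Acvr2b, which did not pass, had a density change of 0.62, above the upper quartile of 0.37 for such transcripts, and Fgfr1 at 0.81 lay just above the upper quartile of 0.79 for enriched ones. The transcripts nearest to the receptors' median profile of CLIP enrichment, mRNA change and density change, each scaled to its spread over 7081 transcripts, were Dst at a distance of 0.11, Itga6 at 0.21 and Tbl1xr1 at 0.22. The receptors themselves lay between 0.20 (Igf1r) and 1.69 (Igf2r) from it.

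**Figure D5:**
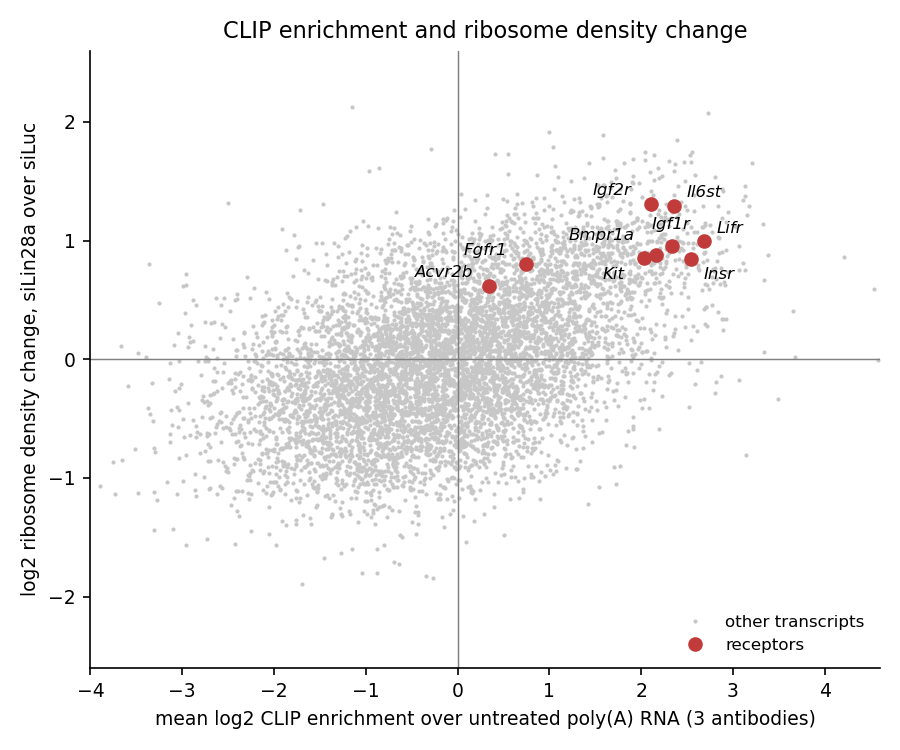
Mean log2 CLIP enrichment (3 antibodies) against log2 ribosome density change for 7084 transcripts, with 7 outside the axes. The 9 receptors, in red, lie above 0 on both axes, 7 of them beyond 2.00 on the CLIP axis.

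Other genes of the LIF, FGF, BMP and activin, and insulin and IGF pathways were taken from lists by role. Of 6 other receptors in the CLIP table, all from the BMP and activin list, 6 were enriched and 0 depleted (edgeR), with a median of 2.44. That list also holds the TGF-beta receptor gene Tgfbr1 and the Nodal co-receptor gene Tdgf1. The type II receptors Acvr2a and Bmpr2 were highest at 3.23 ± 0.13 and 3.11 ± 0.03 (SD, n = 3). Of 9 genes in the ligand lists 4 were enriched and 1 depleted (median 0.12). Here and below, these lists also hold Igfbp2, a secreted IGF-binding protein, which was enriched. They hold Lefty1, a Nodal antagonist, as well, which was the 1 depleted. Of 42 intracellular transducers 15 were enriched and 19 depleted (median −0.26), of 22 inhibitors 7 and 7 (median −0.03) and of 10 pathway targets 0 and 8 (median −1.44), against 34.6% and 33.3% of all transcripts.

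By pathway, 10 of 15 members of the LIF list were depleted and 1 enriched, against 33.3% and 34.6% of all transcripts. The FGF list had 10 depleted and 11 enriched of 31, and the BMP and activin list 4 and 10 of 20. In the insulin and IGF list 11 and 10 of 23 were. Within the LIF list the values were as follows. Lowest were the STAT3-induced inhibitor Socs3 at −2.24 ± 0.34 and the transcription factor gene Junb at −2.11 ± 0.25, and the phosphatase gene Ptpn11 was the least depleted at −0.47 ± 0.07. In the FGF list the RAS and ERK pathway inhibitor Spred1 was highest at 2.48 ± 0.16 and the kinase gene Braf next at 1.71 ± 0.26, with the ERK1 gene Mapk3 lowest at −2.25 ± 0.20 and the ETS factor gene Etv4 at −2.11 ± 0.41. In the BMP and activin list Id3, a BMP target, was lowest at −2.75 ± 0.62 and Smad3 next at −1.10 ± 0.24. In the insulin and IGF list the PI3 kinase subunit gene Pik3r1 was enriched at 1.35 ± 0.14. Lowest were the adaptor Shc1 at −2.24 ± 0.64 and the subunit Pik3r2 at −2.12 ± 0.49 (SD, n = 3).

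After Lin28a siRNA, 18 of 124 pathway mRNAs were 1.5-fold higher than with siLuc and 8 lower (median 0.09), near the 11.4% and 6.53% of all transcripts. Past 2-fold were Klf4, a STAT3 target, at 1.09 (0.98 to 1.20), the BMP target Id1 at 1.03 (0.68 to 1.39) and the STAT inhibitor gene Pias3 at 1.02 (0.72 to 1.33). Against untreated cells, the ERK-induced gene Egr1 was at −2.15 with siLuc (−2.41 to −1.91) and −2.38 with siLin28a (−2.63 to −2.15), and the co-receptor gene Eng at 1.15 with siLin28a (0.88 to 1.42).

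Density was 1.5-fold higher for 5 of 5 other receptors and 7 of 10 ligands with 0 lower in either list. It was higher for 3 and lower for 8 of 41 transducers, for 3 and 4 of 24 inhibitors, and for 0 and 3 of 9 targets. Of all transcripts 18.6% were higher and 17.0% lower, so the transducers and inhibitors lay near or below those shares. Past 2-fold upward were the activin and TGF-beta type I receptor genes Acvr1b at 1.13 (0.84 to 1.43) and Tgfbr1 at 1.12 (0.74 to 1.5), the Nodal co-receptor Tdgf1 at 1.11 (1.04 to 1.19), and the decoy receptor Bambi at 1.48 (0.96 to 2.00). So were the ligand genes Nodal at 1.02 (0.77 to 1.26) and Lefty1, a Nodal antagonist, at 1.12 (0.95 to 1.29), and Igfbp2, a secreted IGF-binding protein, at 1.02 (0.95 to 1.08). Downward were Myc at −1.10 (−1.44 to −0.76) and the ERK phosphatase gene Dusp6 at −1.05 (−1.36 to −0.74).

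Footprints of the other receptors were 1.5-fold higher for 4 of 5 and of the ligands for 6 of 10, with 0 lower. For transducers 1 of 41 was higher and 11 lower, for inhibitors 1 and 5 of 24, and for targets 1 and 4 of 9. Of all transcripts 13.0% were higher and 27.2% lower, so the lower counts of transducers and inhibitors lay near or below that share. Past 2-fold upward were Eng at 1.5 (1.32 to 1.69), Inhbb at 1.42 (1.20 to 1.65), Lefty2 at 1.28 (1.21 to 1.35), Tdgf1 at 1.26 (1.22 to 1.30), Igfbp2 at 1.15 (1.12 to 1.17), Nodal at 1.05 (0.92 to 1.17) and Acvr1b at 1.02 (0.83 to 1.21). Past it downward were the kinase gene Pim1 at −1.19 (−1.45 to −0.93), Etv4 at −1.18 (−1.46 to −0.92), Smad2 at −1.06 (−1.42 to −0.73), Dusp6 at −1.06 (−1.31 to −0.81) and Pias1 at −1.02 (−1.45 to −0.61).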

How the data were processed

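The authors deposited whole read counts per RefSeq transcript in 3 tables, per the file headers, and coordinates are given as in those tables. The submitters' processing notes list GSNAP, bedtools and the build mm9. How reads were counted, and on which strand, is not given in the sources used here. No condition is named for the poly(A) reference beside the CLIP counts, so untreated counts of the poly(A) table served as CLIP input. A further 21 per-sample columns went unused.

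CLIP (3 libraries) was tested against untreated poly(A) RNA (1 library, assumed to vary like the CLIP libraries) with edgeR 4.0.16 in R 4.3.3, quasi-likelihood test, TMM factors, filterByExpr (which kept all 7820 transcripts), and Benjamini-Hochberg adjustment over all transcripts at 0.05. DESeq2 1.42.0 was an alternative. Log2 values used a pseudocount of 0.5 counts. The siRNA comparisons, with 1 library per condition, are log2 ratios of CPM by library total, over transcripts with 50 counts or more over both libraries. Density is footprints over the footprint table's poly(A) counts (each at least 80), and its change is centred on the median transcript. Intervals at 95% (exact Poisson for levels, Clopper-Pearson for ratios, normal on the log scale for density) cover counting error only. Scripts were tested on simulated data.

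Members and lists were chosen with earlier results of these data known. All 10 receptors are named. Of the pathway lists, the 2 highest and 2 lowest called in CLIP per pathway and all genes past 2-fold with 200 counts or more are named, except items not reported here.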

Additional observations from a re-analysis of the deposited data

How the results depend on the processing

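The number of receptors enriched (9) and depleted (0) in CLIP was the same with DESeq2, total counts, no low count filter, that table's poly(A) column, all 3 poly(A) libraries as input, and without each antibody. The CLIP enrichment of Acvr2b did not pass in any of them (adjusted p from 0.067 to 0.95, edgeR or DESeq2), and with total counts it was −0.021. The adjusted p of Fgfr1 ranged up to 0.028. The number of receptor mRNAs 1.5-fold higher with siLin28a went from 0 to 1 (Insr) with the footprint table's tally, which gave 0.66. The cause was not tested. Of the single-gene values under an alternative, 189 were counted as unchanged and 24 moved beyond their error. Of the 24, 8 were mRNA changes taken against untreated cells and 8 footprint changes with TMM factors. Some values counted as unchanged still crossed the 1.5-fold line. The density change of Acvr2b fell below it with library totals (0.40) and with mRNA from the poly(A) table (0.57). Insr mRNA rose past it with the footprint table's tally. Signs also changed for the mRNA of Fgfr2 (0.27) and Bmpr1a (0.01) against untreated cells and of Bmpr1a (0.08) with the footprint table's tally. No paired analysis was possible because the groups compared share a single replicate number, each siRNA condition having 1 library. Fgfr2, at 63 to 79 poly(A) counts per library, is limited most by depth.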

Other observations

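Of 15 other receptor tyrosine kinases in the CLIP table, 11 were enriched and 0 depleted (edgeR), with a median of 1.09, against 34.6% and 33.3% of all transcripts. Mertk, a receptor for clearance of dying cells, was at 2.42 ± 0.59. The ephrin receptor gene Epha4 was at 2.31 ± 0.09 and the hepatocyte growth factor receptor gene Met at 2.28 ± 0.17 (SD, n = 3). These sizes were like that of Igf1r. Mertk rested on few poly(A) counts, 69 over the untreated and siLuc libraries together, and varied more between antibodies than Epha4 and Met. Ephb4 at 0.07 ± 0.26, Ddr1 at 0.08 ± 0.34 and Tyro3 at −0.17 ± 0.05 did not pass (adjusted p = 0.79, 0.76 and 0.35, edgeR), nor did Ntrk2 at 1.09 ± 1.15. The genes named for CLIP here were picked after their values were seen.

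After Lin28a siRNA, 7 of 18 of these kinases had 1.5-fold more mRNA than with siLuc and 0 had less, a median of 0.47, where the 10 receptors above had a median of 0.00 and 11.4% of all transcripts were higher. Footprints were 1.5-fold higher for 11 of 12, against 13.0% of all transcripts, and density for 10 of 12, against 18.6%. Past 2-fold in footprints were the ERBB receptor genes Erbb3 at 1.38 (1.24 to 1.52) and Erbb2 at 1.19 (0.97 to 1.42), the ephrin receptor genes Epha4 at 1.37 (1.27 to 1.47), Epha2 at 1.16 (1.10 to 1.23) and Ephb3 at 1.06 (0.93 to 1.18), and Tyro3 at 1.36 (1.22 to 1.49). In density Epha4 alone of them passed it, at 1.12 (0.90 to 1.35). Tyro3, without CLIP enrichment, stood at 0.84 in density (0.65 to 1.04).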
